A study of Mus musculus with 12 samples.

Results

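The genes described here are 10 keratin genes of luminal, stress-responsive and differentiating epithelium: Krt7, Krt8, Krt18, Krt19, Krt15, Krt17, Krt6a, Krt10, Krt80 and Krt23. They were taken as a named list and found by Ensembl identifier among the 52636 genes counted in each library, and all 10 were present. The 12 libraries were made from bulk RNA of 2153L, a transplantable breast tumor of a genetically engineered mouse, labelled TNBC (triple-negative breast cancer) and carried in mammary fat pads of BALB/c females. The tumors had been transduced with an empty vector (EV) or with P53ERTAM, a form of p53 that tamoxifen switches on, and were given vehicle or combo, which is ORIN1001 (an IRE1α RNase inhibitor, 150 mg/kg daily) plus weekly docetaxel at 20 mg/kg, a taxane that stabilises microtubules, over 8 days. Each of the 4 groups, EV vehicle, EV combo, P53ERTAM vehicle and P53ERTAM combo, had 3 libraries. The age of the mice, the promoter driving the transgene, any use of a clonal line and which mice received tamoxifen are not given in the sources used here. Nothing in the labels ties a library to its own mouse, so p-values measure the spread between these libraries.

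Keratins are the intermediate filament proteins of epithelial cells, and each filament is built from pairs of a type I and a type II keratin. KRT8 with KRT18 is the pair of simple and luminal mammary epithelium, where KRT7 and KRT19 accompany it, while KRT5 with KRT14 is the pair of basal and myoepithelial cells. KRT17 and KRT6A are induced in stressed or wounded skin, KRT15 belongs to basal and hair follicle stem cells of skin, and KRT10 to the differentiating layers of the epidermis.

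The 10 genes lie in the mouse keratin clusters on 2 chromosomes. In the coordinates of the deposited files (GRCm38.p5), the type II genes Krt7 (101411043 to 101430313), Krt8 (101996711 to 102004342), Krt6a (101689932 to 101694307) and Krt80 (101349571 to 101370125) are on chromosome 15. Krt18 (102028216 to 102032026) is a type I gene that sits among them, with a gap of 23.9 kb to its partner Krt8. The other type I genes, Krt15 (100131758 to 100135928), Krt19 (100140810 to 100148665), Krt17 (100256217 to 100261029), Krt10 (99385254 to 99389364) and Krt23 (99477974 to 99493137), are on chromosome 11, where Krt15 and Krt19 are separated by 4.88 kb.

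Of the 10 genes, 5 matched the RefSeq promoter table (GRCm38.p6), and the start regions of Krt7, Krt8 and Krt18 are printed here because these 3 luminal keratins had lower counts together in P53ERTAM tumors under vehicle. Each runs 5′ to 3′ from 150 bases before to 10 bases after the RefSeq gene start, at chr15:101412253-101412412 (plus strand), chr15:102004333-102004492 (minus strand) and chr15:102028066-102028225 (plus strand). Capitals mark matches, on either strand, to the GC box GGGCGG, the AP-2 motif GCCNNNGGC and the TATA motif TATAAA.
Krt7: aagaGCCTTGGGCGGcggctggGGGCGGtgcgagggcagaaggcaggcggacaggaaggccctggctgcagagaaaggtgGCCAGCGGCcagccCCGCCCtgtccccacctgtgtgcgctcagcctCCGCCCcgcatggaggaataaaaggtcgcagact
Krt8: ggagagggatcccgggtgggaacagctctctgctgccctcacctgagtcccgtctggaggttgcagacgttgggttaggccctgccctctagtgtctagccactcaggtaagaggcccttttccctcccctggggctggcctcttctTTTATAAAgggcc
Krt18: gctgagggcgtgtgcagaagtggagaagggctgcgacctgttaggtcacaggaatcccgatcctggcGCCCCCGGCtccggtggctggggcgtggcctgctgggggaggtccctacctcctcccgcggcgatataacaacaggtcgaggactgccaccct

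The 3 start regions shared no motif that all of them held. Over the whole window of 250 bases before to 50 after the start, Krt7 held 4 GC boxes, at 141, 128, 56 and 24 bases before the start, and 2 AP-2 matches, at 146 and 70 bases before it, where the one farther from the start overlaps a GC box. Krt18 held 1 AP-2 match, 83 bases before the start. Krt8 held the TATA motif on both strands in a single stretch across the start. Krt10, also in the table, held 1 TATA motif 26 bases before its start, and Krt23 held none of the motifs searched. The AP-1 motif TGANTCA and the p53 half-site were in none of the 5 windows. Among 32851 promoter windows of 300 bases, 35.7% held a GC box, 16.6% an AP-2 match, 13.6% a TATA motif, 7.81% an AP-1 motif and 8.36% a p53 half-site.

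Library totals were 13484873 to 24424964 counts, and 17970 genes, all 10 keratins among them, passed the filter on low counts. The 3 EV combo libraries stood apart from the other 9 in make-up, with 80.9 to 81.7% of counts in protein-coding genes against 86.7 to 95.8%, and 10.7 to 11.1% in the noncoding gene Gm26917 against 0.133 to 1.10%. Every comparison with EV combo carries that difference, and its part in the results was not tested. Esr1, whose hormone-binding domain the ERTAM fusion carries, stood at 5.31 to 12.4 CPM (counts over the library total, adjusted by TMM, edgeR's factor for library make-up) in the 6 EV libraries and 29.3 to 38.9 in the 6 P53ERTAM libraries, and Trp53 at 39.8 to 55.0 against 48.4 to 65.0. Whether reads of the transgene enter either gene was not tested. All 12 epithelial identity genes, among them Epcam, Cdh1 and Cldn3, passed the filter on low counts. Of 14 markers of differentiated epidermis, only Tgm1 passed the filter and Flg and Flg2 were at 0 in all 12 libraries, and of 9 hair follicle markers only Krt27 passed, with Krt31 and Krt33a at 0. Markers of mesothelium, another source of Krt7, Krt8, Krt18 and Krt19, summed to at most 0.785 CPM. Whether other epithelium of the host adds to these genes was not tested.

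Per gene length, Krt18 and Krt8 were the most abundant of the 53 protein-coding keratin genes in these tumors. Mean levels over the 12 libraries, in TPM (counts over the summed exon length in the files, scaled to a fixed total per library), were 672 for Krt18 and 433 for Krt8. They were followed among the 10 genes by Krt17 at 88.8 TPM, Krt23 at 88.4, Krt15 at 71.1 and Krt7 at 54.5. A lower tier held Krt80 at 8.02 TPM, Krt6a at 5.02, Krt10 at 4.12 and Krt19 at 2.39. The level of Krt7 rests on a summed exon length of 7055 bases, against 1400 to 2256 bases in the other 9, so its place in the order depends on which of its annotated exons are used.

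Only 16 of the 53 keratin genes reached a mean of 1 TPM, and these included all 10 described here. The 6 others were the basal genes Krt14 (113 TPM) and Krt5 (77.0 TPM), then Krt79 (63.8 TPM), and, below 2 TPM each, Krt76, Krt16 and Krt42. Summed keratin mRNA was 2272 ± 358 TPM (SD, n = 3) in EV vehicle, 2223 ± 397 in EV combo, 1051 ± 110 in P53ERTAM vehicle and 1212 ± 255 in P53ERTAM combo. Every EV library (1779 to 2642 TPM) was above every P53ERTAM library (947 to 1500 TPM). The 10 genes made up 73.1 to 80.1% of that sum in EV combo and 95.3 to 96.4% in P53ERTAM combo. Their share was 79.1 to 86.8% in EV vehicle, which overlapped with EV combo, and 86.8 to 92.5% in P53ERTAM vehicle. Krt7, Krt8 and Krt18 alone held 49.9 to 63.7% in EV combo and 81.9 to 85.9% in P53ERTAM combo.

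**Figure D1:**
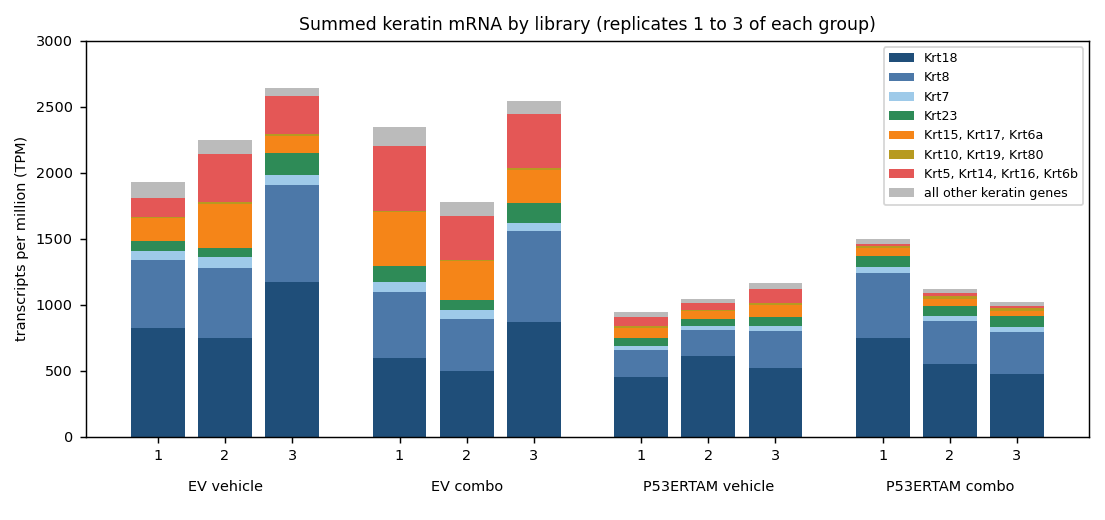
Summed keratin mRNA in TPM (vertical axis) for each of the 12 libraries, replicates 1 to 3 of each group, stacked by gene or gene group. Krt18 and Krt8 together fill from 46.7% of the bar (EV combo replicate 1) to 82.9% (P53ERTAM combo replicate 1), the P53ERTAM bars end between 947 and 1500 TPM and the EV bars between 1779 and 2642 TPM, and the basal keratin segment is thinnest in P53ERTAM combo.

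Krt8, the type II partner of the luminal pair, was lower in P53ERTAM than in EV tumors under vehicle, and the vectors overlapped under combo. Its 3 libraries read 299, 302 and 425 CPM in EV vehicle, 257, 202 and 346 in EV combo, 113, 131 and 158 in P53ERTAM vehicle, and 268, 173 and 175 in P53ERTAM combo. All 3 P53ERTAM vehicle libraries were below the other 9. EV combo overlapped with both EV vehicle and P53ERTAM combo, which did not overlap with each other. Group means ran from 342 ± 72.2 CPM (SD, n = 3) in EV vehicle through 269 ± 72.6 in EV combo and 205 ± 54.5 in P53ERTAM combo to 134 ± 22.7 in P53ERTAM vehicle, and the last step was the only one between neighbours without overlap. Under vehicle Krt8 fell by 1.35 on the log2 scale between EV and P53ERTAM (SE 0.230, edgeR adjusted p = 0.000837), a 2.56-fold lower level, and this call held without each library in turn (-1.49 to -1.14). Under combo the difference was -0.39 (SE 0.225, edgeR adjusted p = 0.181).

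The combo difference of Krt8 had opposite signs in the vectors, -0.35 (SE 0.225, edgeR adjusted p = 0.239) in EV and 0.62 (SE 0.227, edgeR adjusted p = 0.116) in P53ERTAM tumors. The difference between them was 0.97 (SE 0.320, edgeR adjusted p = 0.0323). Leaving out EV vehicle replicate 3 ended that call (edgeR adjusted p = 0.0766), as did leaving out EV combo replicates 1 (0.0662) and 2 (0.0689), P53ERTAM vehicle replicates 1 (0.0844) and 2 (0.0747) and P53ERTAM combo replicate 1 (0.0935). It was also lost with scaling on protein-coding genes only (0.79, edgeR adjusted p = 0.0752) and with no filter on low counts (0.126). A processed copy, Krt8-ps, shares 26.9% of the 50-base stretches of Krt8, and its own counts were 5 to 40 per library against 1779 to 8165 for Krt8.

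Krt18, the type I partner, had a smaller estimated difference between the vectors. It stood at 371, 331 and 527 CPM in EV vehicle, 237, 196 and 340 in EV combo, 195, 324 and 228 in P53ERTAM vehicle and 312, 224 and 198 in P53ERTAM combo. The 2 highest libraries were both EV vehicle, and the other 3 groups covered nearly the same range. The order of means was EV vehicle (410 ± 104), EV combo (258 ± 74.3), P53ERTAM vehicle (249 ± 66.9) and P53ERTAM combo (244 ± 59.8), and each neighbour overlapped with the next. Krt18 fell by 0.72 between EV and P53ERTAM under vehicle (SE 0.255, edgeR adjusted p = 0.0422). The call was lost without EV vehicle replicate 1 (edgeR adjusted p = 0.0522) or 3 (-0.47, 0.183) or P53ERTAM vehicle replicate 1 (-0.55, 0.157) or 3 (0.111), on protein-coding genes only (0.0648) and with no filter on low counts (0.149). In EV tumors combo gave -0.67 (SE 0.255, edgeR adjusted p = 0.0542), which DESeq2 called (adjusted p = 0.0420). In P53ERTAM tumors it gave -0.024 (SE 0.254, edgeR adjusted p = 0.968), with a sign that changed when single libraries were left out.

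Krt7, a type II keratin of glandular and luminal epithelium, was lower in P53ERTAM than in EV tumors under both treatments, with no overlap. Its levels were 166, 179 and 165 CPM in EV vehicle, 151, 140 and 121 in EV combo, 65.9, 85.8 and 80.9 in P53ERTAM vehicle and 94.2, 78.5 and 79.6 in P53ERTAM combo. All 6 EV libraries (121 to 179 CPM) were above all 6 P53ERTAM libraries (65.9 to 94.2 CPM), and only Krt17 among the other 9 genes shared that split, which 14.4% of all genes tested showed in either direction. In CPM, EV vehicle (170 ± 7.67) also lay above EV combo (137 ± 15.6) without overlap, while P53ERTAM combo (84.1 ± 8.78) and P53ERTAM vehicle (77.5 ± 10.4) overlapped. Both relations changed in TPM. There EV combo replicate 1 (75.4) exceeded EV vehicle replicates 1 (73.3) and 3 (72.9). The lowest P53ERTAM combo library (37.7 TPM) was above the highest P53ERTAM vehicle library (36.7 TPM). Krt7 fell between EV and P53ERTAM by 1.13 under vehicle (SE 0.124, edgeR adjusted p = 5.51e-05) and by 0.71 under combo (SE 0.123, edgeR adjusted p = 0.000555), and both calls held without each library in turn. Combo in EV tumors gave -0.31 (SE 0.122, edgeR adjusted p = 0.0597), and the difference between the combo effects was 0.43 (SE 0.173, edgeR adjusted p = 0.0701), a call only without P53ERTAM vehicle replicate 2 (0.51, edgeR adjusted p = 0.0437).

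Krt19, the small type I keratin of luminal and progenitor cells, was barely detected. It had 6 to 50 counts per library, which is 0.296, 1.49 and 1.82 CPM in EV vehicle, 1.08, 1.52 and 2.85 in EV combo, 0.793, 1.17 and 1.11 in P53ERTAM vehicle and 0.604, 1.65 and 1.69 in P53ERTAM combo. All 4 groups overlapped. Mean levels of 1.81 ± 0.922, 1.31 ± 0.613, 1.20 ± 0.803 and 1.03 ± 0.204 CPM in EV combo, P53ERTAM combo, EV vehicle and P53ERTAM vehicle differed by less than their spread, and at this depth no difference was detectable (edgeR adjusted p from 0.457 to 0.857 over the 5 contrasts).

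Krt23, a type I keratin found in several glandular epithelia, was carried in EV vehicle by a single library. It read 36.1, 34.0 and 83.5 CPM in EV vehicle, 54.0, 32.2 and 64.6 in EV combo, 28.0, 29.1 and 33.0 in P53ERTAM vehicle and 39.4, 32.7 and 37.7 in P53ERTAM combo. EV libraries spread widely, while the 6 P53ERTAM libraries stayed between 28.0 and 39.4 CPM. Means were 51.2 ± 28.0, 50.3 ± 16.5, 36.6 ± 3.47 and 30.0 ± 2.68 CPM in EV vehicle, EV combo, P53ERTAM combo and P53ERTAM vehicle, with overlap at each step. P53ERTAM vehicle lay below EV vehicle without overlap, yet the difference of -0.77 (SE 0.319, edgeR adjusted p = 0.0754) was not called, and it was -0.20 without EV vehicle replicate 3. DESeq2 called it (adjusted p = 0.0420). No other contrast of Krt23 was called.

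**Figure D2:**
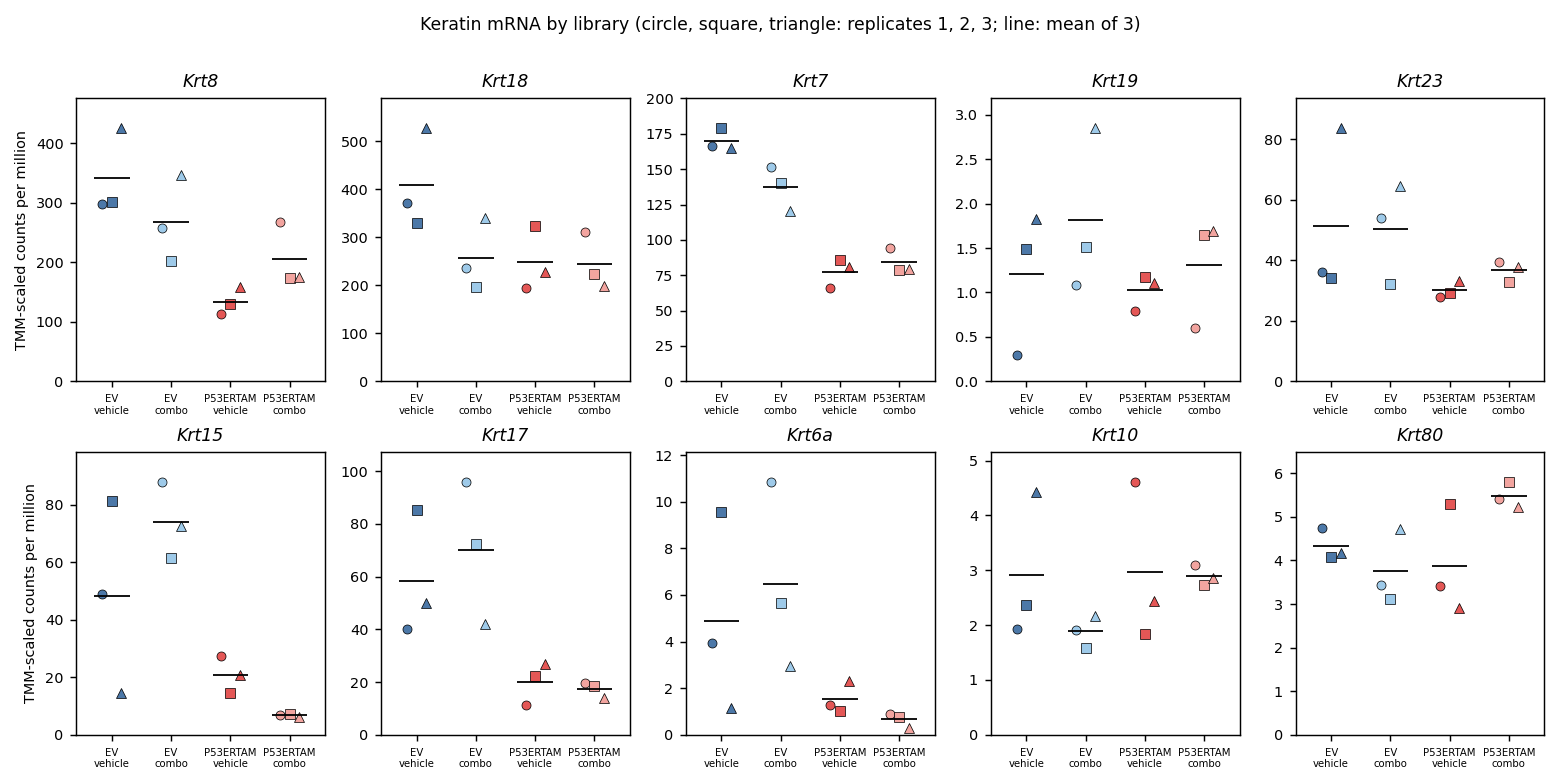
TMM-scaled CPM (vertical axis, from 0) of the 10 keratin genes in each library of the 4 groups. Circles, squares and triangles are replicates 1, 2 and 3 and the line is their mean. Krt7 and Krt17 keep all EV libraries above all P53ERTAM libraries, and Krt15 lies between 6.04 and 7.40 CPM in P53ERTAM combo.

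Krt15, a type I keratin of basal and progenitor cells, had the lowest level and the tightest libraries in P53ERTAM combo. It stood at 48.9, 81.4 and 14.6 CPM in EV vehicle, 88.0, 61.6 and 72.6 in EV combo, 27.5, 14.4 and 20.9 in P53ERTAM vehicle and 7.01, 7.40 and 6.04 in P53ERTAM combo. P53ERTAM combo was below every other library, and EV vehicle replicate 3 was as low as the P53ERTAM vehicle libraries. The order was EV combo (74.1 ± 13.2), EV vehicle (48.3 ± 33.4), P53ERTAM vehicle (20.9 ± 6.54) and P53ERTAM combo (6.82 ± 0.702), and only the last step was free of overlap. Under combo Krt15 was 10.9-fold lower in P53ERTAM than in EV tumors (log2 difference -3.44, SE 0.489, edgeR adjusted p = 0.000215), the largest difference of any of the 10 genes, and without each library in turn it stayed between -3.55 and -3.30.

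The combo difference of Krt15 also had opposite signs in the vectors, 0.62 (SE 0.437, edgeR adjusted p = 0.286) in EV and -1.62 (SE 0.470, edgeR adjusted p = 0.0614) in P53ERTAM tumors, neither of which was called. The difference between the combo effects was -2.24 (SE 0.641, edgeR adjusted p = 0.0185), called without each library in turn (-2.88 to -1.83) and lost only with no filter on low counts (edgeR adjusted p = 0.0830). The value in P53ERTAM tumors passed the threshold by DESeq2 (-1.62, adjusted p = 0.0201), on protein-coding genes only (-1.67, edgeR adjusted p = 0.0468) and in a fit of these 2 groups alone (-1.63, edgeR adjusted p = 0.00199). Under vehicle the vectors differed by -1.20 (SE 0.448, edgeR adjusted p = 0.0526), and this passed the threshold without EV vehicle replicate 3 (-1.61, edgeR adjusted p = 0.000935). In EV tumors combo gave 1.26 (edgeR adjusted p = 0.0321) without EV vehicle replicate 2.

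Krt17, the type I stress keratin, was lower in P53ERTAM than in EV tumors under both treatments. Libraries read 40.2, 85.2 and 50.1 CPM in EV vehicle, 95.9, 72.3 and 41.9 in EV combo, 11.5, 22.2 and 27.0 in P53ERTAM vehicle and 19.7, 18.4 and 14.2 in P53ERTAM combo. The lowest of the 6 EV libraries, at 40.2 CPM, was above the highest of the 6 P53ERTAM libraries, at 27.0. Means were 70.0 ± 27.1 in EV combo, 58.5 ± 23.6 in EV vehicle, 20.2 ± 7.95 in P53ERTAM vehicle and 17.4 ± 2.89 in P53ERTAM combo, so the treatments overlapped within each vector. The vectors differed by -1.54 under vehicle (SE 0.370, edgeR adjusted p = 0.00703), 2.90-fold lower, and by -2.01 under combo (SE 0.373, edgeR adjusted p = 0.00123), 4.02-fold lower, and both calls held without each library in turn. Combo within a vector gave 0.26 (edgeR adjusted p = 0.594) and -0.21 (edgeR adjusted p = 0.772). Krt17 shares 3.99% of its 50-base stretches with other genes, 3.66% with Krt14, which also differed between the vectors.

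Krt6a, the type II partner of KRT17 in stressed skin, was scarce and varied widely in EV tumors. It had 3.95, 9.56 and 1.15 CPM in EV vehicle, 10.9, 5.64 and 2.96 in EV combo, 1.29, 1.03 and 2.33 in P53ERTAM vehicle and 0.886, 0.779 and 0.314 in P53ERTAM combo, the last from 22, 18 and 8 counts. The combo groups did not overlap, and the vehicle groups did. The order of means was 6.48 ± 4.01 in EV combo, 4.89 ± 4.29 in EV vehicle, 1.55 ± 0.690 in P53ERTAM vehicle and 0.660 ± 0.304 in P53ERTAM combo. Krt6a fell by 3.29 between EV and P53ERTAM under combo (SE 0.733, edgeR adjusted p = 0.00337) and this held without each library in turn (-3.63 to -2.69). Under vehicle it was -1.65 (SE 0.686, edgeR adjusted p = 0.0748), a call without EV vehicle replicate 3 (-2.10, edgeR adjusted p = 0.0155) and by DESeq2 (adjusted p = 0.0337). Of its 50-base stretches 45.7% occur in other genes, 40.2% in Krt6b, whose own counts were 0 to 4, so how reads divide between these copies is uncertain.

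Krt10 and Krt80, keratins of differentiating layers, were low in all groups and no contrast called them. Krt10 had 1.92, 2.37 and 4.43 CPM in EV vehicle, 1.90, 1.59 and 2.17 in EV combo, 4.61, 1.84 and 2.45 in P53ERTAM vehicle and 3.10, 2.73 and 2.86 in P53ERTAM combo. Of the 4 pairs of groups compared, only EV combo and P53ERTAM combo were free of overlap (0.61, SE 0.401, edgeR adjusted p = 0.229). Means of 2.96 ± 1.46, 2.91 ± 1.34, 2.90 ± 0.189 and 1.89 ± 0.288 CPM belonged to P53ERTAM vehicle, EV vehicle, P53ERTAM combo and EV combo. An antisense gene, Gm11940, overlaps 6.91% of the exon length of Krt10 and had 11 to 50 counts against 22 to 93 for Krt10; the strand setting of the counting is not given in the sources used here.

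Krt80, a type II keratin that lies near desmosomes, had its highest mean in P53ERTAM combo. It stood at 4.74, 4.08 and 4.17 CPM in EV vehicle, 3.43, 3.11 and 4.73 in EV combo, 3.42, 5.29 and 2.91 in P53ERTAM vehicle and 5.40, 5.80 and 5.22 in P53ERTAM combo. The 3 P53ERTAM combo libraries exceeded all EV libraries and overlapped with P53ERTAM vehicle. Means were 5.47 ± 0.299, 4.33 ± 0.356, 3.87 ± 1.25 and 3.75 ± 0.859 CPM in P53ERTAM combo, EV vehicle, P53ERTAM vehicle and EV combo. Against EV combo it gave 0.54 (SE 0.274, edgeR adjusted p = 0.125), and against P53ERTAM vehicle 0.50 (SE 0.273, edgeR adjusted p = 0.276).

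Combo changed no keratin of the list beyond the threshold in EV tumors. The count was 0 of 10 by edgeR (adjusted p below 0.05), where 39.9% of all genes tested were called in either direction. At an unadjusted p below 0.05 it was 2, Krt7 and Krt18, both with negative values, against 49.1% of all genes, and DESeq2 called 1, Krt18. In CPM, Krt7 was the only gene of the 10 whose EV groups did not overlap, against 50.5% of all genes. In TPM its EV groups overlapped too, so that separation depends on the scale. The median log2 fold change of the 10 was -0.11, beside -0.067 over all genes and -0.13 over protein-coding genes. Fibroblast markers moved in the same comparison, with 7 of 10 higher and a summed level of 1147 to 2098 CPM in EV combo against 581 to 643 in EV vehicle. Endothelial markers were higher in 3 of 8 (96.4 to 170 CPM against 46.8 to 101), and epithelial identity genes were lower in 6 of 12 (2005 to 2364 CPM against 3218 to 3929). The part of these genes in the keratin values was not tested, and in bulk tissue fewer cells of a type and less RNA per cell cannot be told apart.

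In P53ERTAM tumors combo likewise gave 0 calls of 10 by edgeR, where 6.28% of all genes were called. An unadjusted p below 0.05 was reached by 2, Krt8 (higher) and Krt15 (lower), against 24.7% of all genes, and DESeq2 called 1, Krt15. CPM ranges were free of overlap for 3 of 10, with Krt8 higher and Krt15 and Krt6a lower, against 33% of all genes. In TPM the groups overlapped for Krt6a, and Krt7, Krt80 and Krt23 were higher with combo without overlap. The median of the 10 was 0.047, beside 0.0050 over all genes, and the single values ran from -1.62 for Krt15 to 0.62 for Krt8. Over all genes the number of calls in this comparison was 1129 and ran from 77, without P53ERTAM combo replicate 1, to 2130, without P53ERTAM vehicle replicate 3. Macrophage markers were higher in 7 of 8, summing to 1006 to 1453 CPM against 434 to 502, which was not tested as to its part in the keratin values.

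Between the vectors under vehicle, 4 of 10 keratins were lower in P53ERTAM tumors and 0 higher by edgeR, against 19.8% of all genes called lower, 17.9% higher and 37.8% in either direction. Among protein-coding genes 24.5% were called lower. The 4 were the luminal genes Krt7, Krt8 and Krt18 and the stress keratin gene Krt17. Ranges were free of overlap for 5 of 10, these 4 and Krt23, all lower, against 45.7% of all genes in either direction. DESeq2 called 6, adding Krt6a and Krt23. The median of the 10 was -0.95, beside 0.0062 over all genes and -0.072 over protein-coding genes, with Krt10 at 0.043 the only positive value. In the same comparison 7 of 10 fibroblast markers were higher (summed 1553 to 3879 CPM against 581 to 643) and 6 of 8 endothelial markers (137 to 210 CPM against 46.8 to 101), and their part in the keratin values was not tested.

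Between the vectors under combo, 4 of 10 were again lower in P53ERTAM tumors, Krt7, Krt17, Krt15 and Krt6a, and 0 higher by edgeR, against 22% of all genes called lower, 22.1% higher and 44.1% in either direction. Among protein-coding genes 19.5% were called lower. DESeq2 called 4. Krt8 and Krt18, with values of -0.39 and -0.077, were not among them, and 4 of 10 keratins were lower and 2 higher with no overlap, against 61.7% of all genes in either direction. The median of the 10 was -0.47, beside 0.062 over all genes. Fibroblast markers were higher in 2 of 10 here (1484 to 2209 CPM against 1147 to 2098), endothelial markers in 5 of 8 (170 to 253 CPM against 96.4 to 170) and macrophage markers in 6 of 8 (1006 to 1453 CPM against 324 to 440), which was not tested as to its part in the keratin values. The comparisons between the vectors and between the treatments share libraries, so their values are not independent of each other.

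The combo effect differed between the vectors for 2 of 10 keratins by edgeR, where 36% of all genes were called. Krt8 was higher in this contrast, as were 18.8% of all genes, and Krt15 lower, as were 17.2%. The other 8 had values from -1.64 (Krt6a, SE 0.980, edgeR adjusted p = 0.210) to 0.71 (Krt80, SE 0.389, edgeR adjusted p = 0.171). DESeq2 called 2 as well. In this contrast 5 of 8 macrophage markers were higher, 5 of 10 fibroblast markers lower, and 5 of 12 epithelial identity genes higher and 1 lower, and their part in the keratin values was not tested. Scaling on protein-coding genes only moved the median of all genes by 0.13 for combo in EV tumors, by -0.11 between the vectors under combo and by -0.18 for the interaction, and left the other comparisons within 0.072.

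**Figure D3:**
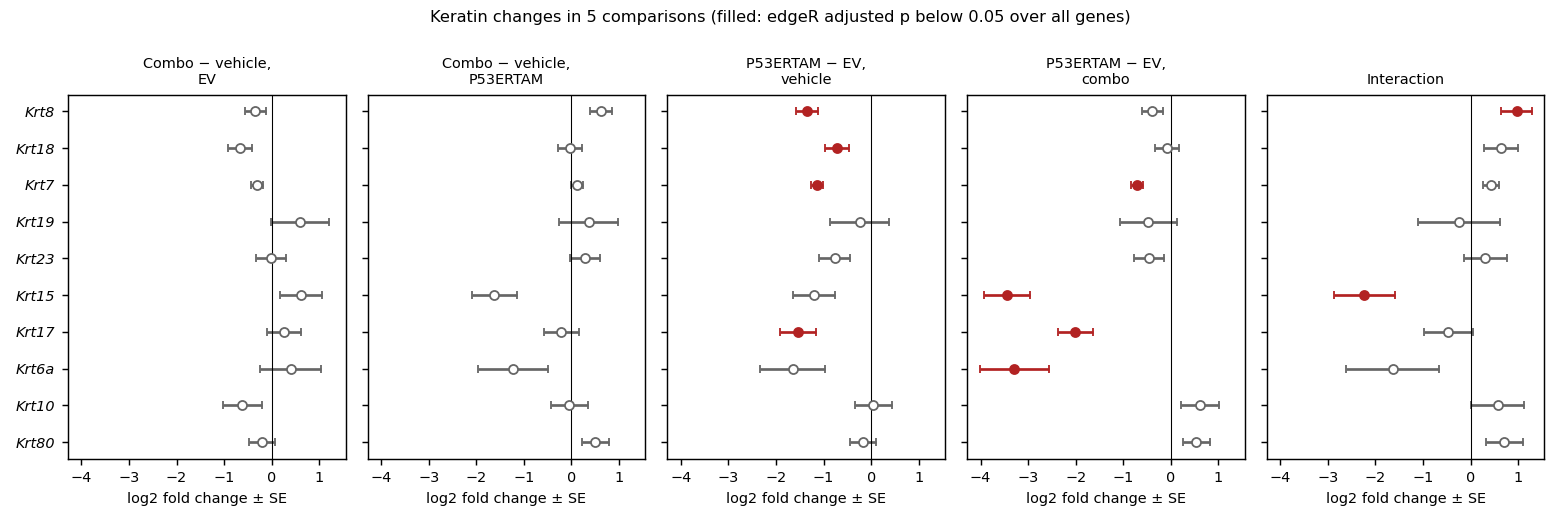
Log2 fold change of each of the 10 keratin genes (points, with bars of 1 SE) in the 5 comparisons. Filled points passed an edgeR adjusted p of 0.05 over all genes: none for combo in either vector, 4 lower between the vectors under each treatment, and Krt8 (0.97) and Krt15 (-2.24) for the interaction.

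The proportion of the 2 partners of the luminal pair had separate ranges in each pair of groups compared. The ratio of Krt8 to Krt18 in TPM was 0.624, 0.708 and 0.626 in EV vehicle, 0.843, 0.798 and 0.789 in EV combo, 0.449, 0.313 and 0.537 in P53ERTAM vehicle and 0.667, 0.600 and 0.685 in P53ERTAM combo. Within each vector every combo library was above every vehicle library, and within each treatment every EV library was above every P53ERTAM library. Among all genes tested, CPM ranges were separate for 50.5% with combo in EV tumors and 33% with combo in P53ERTAM tumors. Between the vectors the shares were 45.7% under vehicle and 61.7% under combo, and no share was computed for ratios of genes. On the log2 scale the means differed by 0.31 with combo in EV tumors, by 0.62 with combo in P53ERTAM tumors, by -0.62 between the vectors under vehicle and by -0.32 under combo. Each of the 4 comparisons reached p = 0.1 by an exact two-sided permutation test (0.1 after Benjamini-Hochberg adjustment over the 4), which is the smallest p that 3 libraries against 3 allow. The ratio does not depend on how libraries are scaled against each other.

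Summed over the list, the type II genes (Krt7, Krt8, Krt6a, Krt80) stood to the type I genes (Krt18, Krt19, Krt15, Krt17, Krt10, Krt23) at 0.556 ± 0.007 in EV vehicle, 0.566 ± 0.031 in EV combo, 0.400 ± 0.076 in P53ERTAM vehicle and 0.598 ± 0.036 in P53ERTAM combo. P53ERTAM vehicle lay below the other 3 groups without overlap. By exact permutation, P53ERTAM vehicle minus EV vehicle was -0.49 and P53ERTAM combo minus P53ERTAM vehicle was 0.60 on the log2 scale (both p = 0.1, 0.2 adjusted over the 4 comparisons), while combo in EV tumors gave 0.022 (p = 0.8) and the vectors under combo 0.080 (p = 0.3). The ratio of Krt15 to Krt17 was 0.312, 0.354 and 0.374 in P53ERTAM combo, and elsewhere it ran from 0.256 in EV vehicle replicate 3 to 2.10 in P53ERTAM vehicle replicate 1.

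**Figure D4:**
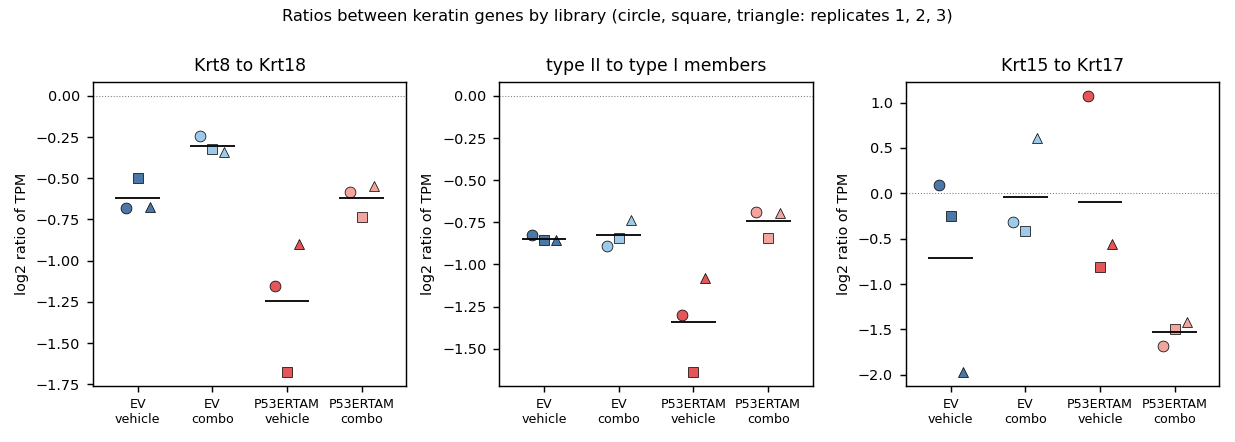
Log2 ratios of TPM (vertical axis) per library for Krt8 to Krt18, summed type II to summed type I genes of the list, and Krt15 to Krt17. Symbols are replicates 1, 2 and 3 and lines are group means. The Krt8 to Krt18 ratio is lowest in P53ERTAM vehicle (mean -1.24) and highest in EV combo (mean -0.30).

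Set beside the other epithelial genes of the tumors, the keratins differed in how much of their change between the vectors remained. The mean log2 CPM of the 12 epithelial identity genes was 7.23 ± 0.099 in EV vehicle, 6.77 ± 0.115 in EV combo, 6.50 ± 0.160 in P53ERTAM vehicle and 6.69 ± 0.099 in P53ERTAM combo. Of the 12, 8 were called lower between the vectors under vehicle, and 2 higher and 4 lower under combo. Over all genes tested, 19.8% were called lower under vehicle, and 22.1% higher and 22% lower under combo. After subtraction of the mean of the 12 genes in each library, Krt18 differed between the vectors by 0.0050 under vehicle and 0.011 under combo, with overlap in each. Its SDs under vehicle were 0.253 in EV and 0.528 in P53ERTAM tumors, far above that difference. Krt23 under vehicle differed by 0.084, with overlap and SDs of 0.625 in EV and 0.167 in P53ERTAM tumors. Krt8 kept a difference of -0.62 under vehicle, with no overlap, and -0.31 under combo, with overlap. Krt7 kept -0.41 under vehicle, with overlap, and -0.63 under combo, without.

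The differences of Krt15, Krt6a and Krt17 under combo were larger than that of the epithelial mean. Relative to it, Krt15 differed between the vectors by -3.36, Krt6a by -3.16 and Krt17 by -1.87 under combo, each with no overlap, and by -0.21, -0.54 and -0.82 under vehicle, each with overlap. Krt10 and Krt80 differed by 0.71 and 0.64 relative to it under combo, with no overlap. These are differences of means of log2 CPM with no prior count added, so values from low counts are not shrunk, and they carry no test.

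**Figure D5:**
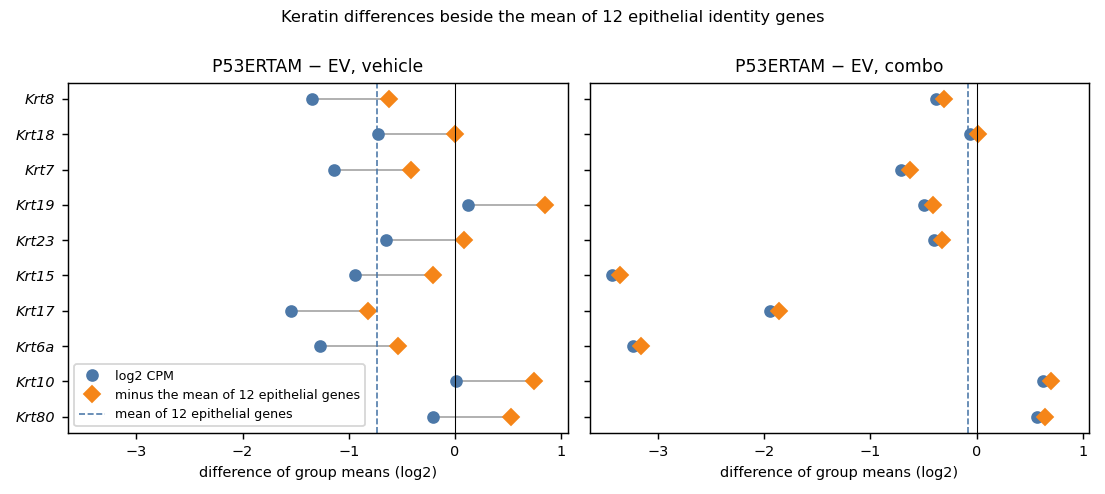
Difference between the group means of P53ERTAM and EV tumors (horizontal axis, log2) for each keratin gene under vehicle (left) and combo (right). Circles are log2 CPM, diamonds the same after subtraction of the mean of 12 epithelial identity genes in each library, and the dashed line is the difference of that mean. Krt18 lies at 0.0050 and 0.011 after subtraction, and Krt15 at -0.21 and -3.36.

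Krt15, Krt17 and Krt6a were lower in the same comparison as the basal keratin pair. Krt14 stood at 94.9 CPM in EV vehicle, 109 in EV combo, 29.8 in P53ERTAM vehicle and 6.80 in P53ERTAM combo (means of 3), and Krt5 at 65.7, 116, 15.03 and 2.86. Between the vectors under combo, Krt14 fell by 4.0 (SE 0.297, edgeR adjusted p = 2.63e-06) and Krt5 by 5.35 (SE 0.672, edgeR adjusted p = 0.000105). Both were also called lower with combo in P53ERTAM tumors, where none of the 10 keratins was called, with log2 differences of -2.13 for Krt14 (SE 0.283, edgeR adjusted p = 0.00417) and -2.40 for Krt5 (SE 0.632, edgeR adjusted p = 0.0468). Of the 4 basal keratin genes listed, 3 were tested, and Krt16 was not called in any comparison.

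Of 12 listed transcription factors of keratin genes, 7 were lower and 0 higher in P53ERTAM tumors under vehicle, and 6 lower and 1 higher under combo. Of all genes, 19.8% were called lower and 37.8% in either direction under vehicle. Under combo 22% were called lower, 22.1% higher and 44.1% in either direction. In each comparison 5 of the 12 did not pass the test. Trp63, the p63 gene of basal epithelial cells, was at 111 CPM in EV vehicle and 34.8 in P53ERTAM vehicle (-1.67, SE 0.230, edgeR adjusted p = 0.000220) and at 98.3 and 13.8 under combo (-2.83, SE 0.242, edgeR adjusted p = 5.48e-06). Elf5, a factor of luminal progenitors, differed by -1.39 and -1.0, and Ehf, an ETS factor of epithelia, by -1.47 and -0.95. Klf4 was the 1 called higher under combo (1.21), and under vehicle it was not called (0.87). With combo in EV tumors 3 of 12 were lower, Sox9 (-0.60), Klf5 (-0.64) and Foxa1 (-1.56), where 39.9% of all genes were called in either direction. In P53ERTAM tumors Trp63 was lower (-1.34) and Nfe2l2, the factor of the oxidative stress response, higher (0.76), and these were the 2 calls of 12. In that comparison 6.28% of all genes were called.

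Of 12 desmosome and linker genes, which anchor keratin filaments at cell junctions, 6 were lower and 1 higher in P53ERTAM tumors under vehicle. Of all genes, 19.8% were called lower, 17.9% higher and 37.8% in either direction in that comparison. Dsg2 (-0.96), Dsc2 (-1.22) and Pkp3 (-0.85) were among the lower ones, and the higher one was Plec (0.57). Under combo 5 were lower and 0 higher, beside 22% of all genes called lower and 44.1% in either direction. Among the 5 were Dsc3 (-3.18), Dsp (-0.94) and Plec (-1.15), the last with the opposite sign to that under vehicle. Dsc3, a basal-layer desmocollin, was the only one called with combo in P53ERTAM tumors (-2.15, SE 0.395, edgeR adjusted p = 0.0133). Of all genes 6.28% were called in that comparison. Plec, the cytolinker plectin, was higher with combo in EV tumors (1.47, SE 0.201, edgeR adjusted p = 0.000274), where 2 of 12 were higher and 3 lower, a share near the 39.9% of all genes called.

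Luminal receptor and milk protein genes gave mixed directions: of 10 tested, 2 were higher and 3 lower between the vectors under vehicle, and 4 higher and 3 lower under combo. Esr1, in which transgene reads were not told apart, is one of the higher genes in both counts, and without it 1 of 9 was higher under vehicle and 3 of 9 under combo. Over all genes tested, 17.9% were called higher and 19.8% lower under vehicle, and 22.1% higher and 22% lower under combo. Prlr, the prolactin receptor, differed by -2.05 and -1.55, and Kit, a receptor of luminal progenitors, by -1.04 and -1.10. Csn3, the kappa casein gene, was higher with combo in P53ERTAM tumors (1.47, SE 0.324, edgeR adjusted p = 0.0266), from 365 to 1008 CPM. Between the vectors the genes called higher besides Esr1 were Areg (1.80) under vehicle and Areg (1.91), Prom1 (0.999) and Csn3 (1.66) under combo.

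The genes outside the list whose levels followed each keratin most closely over the 12 libraries were found by Pearson r of log2 CPM among protein-coding genes, and since the 12 libraries fall into 4 groups the r values hold group differences too. For Krt8 they were Ugt8a (r = 0.958), the epithelial claudin gene Cldn3 (0.945) and Pon2 (0.939), and for Krt18 Uap1 (0.912), Pitx1 (0.889) and Epop (0.882). No gene was in both sets of 3. Krt7 was followed by Brcc3 (0.961), Capn2 (0.954) and Ctps2 (0.953), which kept r of 0.641, 0.480 and 0.130 once group means were subtracted. Krt15 was followed by Galnt14 (0.938), Mtcp1 (0.937) and Efnb1 (0.935), Krt17 by Fam50a (0.949), Il17b (0.941) and Zfp503 (0.934), and Krt6a by Padi4 (0.930), the keratin gene Krt79 (0.927) and Kcnk5 (0.915). The top genes were Exoc3 for Krt23 (0.921), AI597479 for Krt10 (0.893), Susd3 for Krt80 (0.859) and Has2 for Krt19 (0.842). For Has2 the Spearman rho was 0.657, and Krt19 had only 6 to 50 counts per library. All these genes were picked as the highest of many protein-coding genes over 12 libraries, a selection that raises r by itself. Whether any r exceeds what that selection gives was not tested.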

How the data were processed

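RNA was extracted from bulk tumors and made into stranded libraries after removal of ribosomal RNA, per the labels' protocols. The submitters' processing notes name FastQC, fastp, STAR, featureCounts and GRCm38.p5, with no tool versions. Strand setting and annotation release are not given in the sources used here. The deposited tables list unnormalized read counts for each gene with its exon coordinates, per the file headers. Symbols for 52489 of 52636 identifiers came from GENCODE, and 147 had none. Even values made up 66.3 to 71.7% of counts from 1 to 20 and 49.2 to 52.1% of those above 200 (the cause was not tested). Replicate libraries differed beyond counting noise.

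Groups came from the sample titles. The keratin genes, gene lists, tests and naming rule were chosen with earlier results of these data known. Named genes are the 10 keratins, up to 3 genes of smallest p per list and contrast, and the 3 closest genes by r for each keratin. Krt79, Krt76, Krt42, Areg, Klf4, Gm26917 and Trp53, and the markers named at 0, were added after their values were seen. The edgeR quasi-likelihood F-test (edgeR 4.0.16, R 4.3.3, TMM factors, filterByExpr, robust) was fitted once to 4 group means with 8 residual degrees of freedom and 5 contrasts, with Benjamini-Hochberg adjustment over 17970 genes and a threshold of 0.05. SE is the log2 fold change over the square root of F. TPM used the files' exon lengths. DESeq2 1.42.0, other scalings, no filter, a replicate block and refits without each library were the alternatives. The code was tested on simulated counts. Exact permutation tests used scipy 1.17.1. Shared stretches were counted in GENCODE transcripts. Eppk1 and Krt85, on the lists, were not analysed here. Replicate numbers did not pair the libraries.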

Additional observations from a re-analysis of the deposited data

Results flagged for a closer look

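For 2 of the 10 keratins the effect of combo differed between the vectors by a test of the difference itself. Over all genes tested, 36% were called in this contrast, 18.8% higher and 17.2% lower. Krt8 gave a log2 difference of 0.97 (SE 0.320, edgeR adjusted p = 0.0323): all 3 P53ERTAM combo libraries (173 to 268 CPM) were above all 3 P53ERTAM vehicle libraries (113 to 158 CPM), while the EV groups overlapped. That call was lost when any 1 of 6 particular libraries of the 12 was left out (edgeR adjusted p = 0.0662 to 0.0935), on protein-coding genes only (0.0752) and with no filter on low counts (0.126). Krt15 gave -2.24 (SE 0.641, edgeR adjusted p = 0.0185), with 6.04 to 7.40 CPM in P53ERTAM combo below 14.4 to 27.5 in P53ERTAM vehicle and the EV groups again overlapping. It was called without each library in turn and lost with no filter on low counts (edgeR adjusted p = 0.0830). Both contrasts include the EV combo libraries, whose RNA make-up differed from the others; its part in these values was not tested.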

How the results depend on the processing

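Counts of called keratins between the vectors stayed within 1.5 times under all alternatives (3 to 6 under vehicle, 4 under combo). For combo in EV tumors the count of 0 became 1 with DESeq2 and ranged from 0 to 2 in refits without each library. For combo in P53ERTAM tumors it became 1 on protein-coding genes only, in a fit of these 2 groups alone and with DESeq2, and was 0 in each refit without a library. For the interaction the count of 2 became 0 with no filter on low counts and 1 on protein-coding genes only, and ranged from 1 to 3 without each library. The causes were not tested. The replicate numbers did not pair the libraries (r of deviations -0.149 to 0.211 over 18 pairs, 2 of 12 libraries closest to their own number), and the fit with the replicate block gave 0, 0, 4, 4 and 2 calls.

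Uncalled values changed sign. Krt23 with combo in EV tumors was 0.024 with DESeq2 size factors, 0.11 on protein-coding genes only, 0.044 in a fit of 2 groups, 0.017 with the replicate block and 0.018 with DESeq2. Krt18 with combo in P53ERTAM tumors was 5.47e-05 with no filter. Refits without each library gave, for combo in EV tumors, -0.037 to 0.66 for Krt17, -0.20 to 1.38 for Krt6a and -0.25 to 0.55 for Krt23, and for combo in P53ERTAM tumors, -0.23 to 0.21 for Krt18, -0.50 to 0.065 for Krt17 and -0.29 to 0.44 for Krt10. Between the vectors they gave -0.69 to 0.19 for Krt19, -0.42 to 0.50 for Krt10 and -0.45 to 0.00027 for Krt80 under vehicle, and -0.29 to 0.18 for Krt18 and -0.74 to 0.020 for Krt19 under combo. For the interaction they gave -0.66 to 0.26 for Krt19 and -0.26 to 0.53 for Krt23. Krt19, at 6 to 50 counts per library, and Krt6a in P53ERTAM combo, at 8 to 22, are limited by depth.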
